A study of Homo sapiens with 12 samples.

Results

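The clusters described here come from immunoprecipitation of the endogenous QKI protein, set against a size-matched input, in unmodified HEK293 derivatives. The members are every cluster of the 2 anti-QKI libraries and the authors' pooled list of reproducible peaks: 4 of the 12 libraries of the series counting the 2 inputs, and 616191 of the 1620964 clusters of its 6 immunoprecipitation libraries. Library 1 held 384347 clusters and library 2 held 231844. They were taken by library, not by any measured value, so clusters below input are kept beside enriched ones.

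The labels give the cells as HEK293xT and the protocols as HEK293T, an established line of human embryonic kidney origin, with no modification recorded for the groups used here: no plasmid, mutation or drug is named for them. Each 10 cm plate held about 15000000 cells, crosslinked by ultraviolet light at 254 nm with 400 mJ/cm2. The immunoprecipitation used an anti-QKI antibody, and each library has its own size-matched input. The other libraries of the series are of tagged QKI-5, wild type or with a substituted KH domain, and were not used. The labels do not say that the 2 libraries came from separate cultures, so the p-values given here cover no more than the spread of this pair of libraries, and that spread may be technical.

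QKI (Quaking) belongs to the STAR family, whose single KH domain with its flanking regions grips a short single-stranded RNA motif as a dimer. In nuclei it acts mainly on introns, where binding beside an exon can promote its inclusion or its skipping, and in the cytoplasm it binds 3′ untranslated regions and affects stability and translation. The title of the series puts the question of how QKI meets the U6 snRNA and its tri-snRNP partners, the particle that replaces U1 at the 5′ splice site when the spliceosome is activated. Enhanced crosslinking and immunoprecipitation (eCLIP) fixes a protein to the RNA it touches, and the size-matched input, cut from the same gel range without the antibody, records the RNA of all crosslinked proteins. A log2 fold above 0 therefore says that a stretch of RNA took a larger share of the QKI library than of its input, and a log2 fold below 0 that it took a smaller one.

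The sources conflict on the cells: the design note speaks of embryonic stem cells turning into cardiomyocytes. Exon clusters in both libraries were found at 0 of 10 pluripotent markers, 0 of 10 cardiomyocyte markers and 0 of 10 neuronal markers. They were found at 6 of 10 markers of the HEK293 line and kidney lineage, LIN28B, HOXA10 and HOXC10 among them, while PAX8 had no cluster. No cluster of any kind was found at 8 pluripotent, 7 cardiomyocyte and 7 neuronal markers, POU5F1, NANOG, TNNT2 and MYH7 among them. Other members had clusters in both libraries, mostly in introns. These were DNMT3B (23 and 10), ACTN2 (32 and 18), RYR2 (66 and 29), SYT1 (195 and 107) and GAD1 (17 and 8). DNMT3B had 6 exon clusters in library 1, and ACTN2 held 1 reproducible peak and SYT1 3. Because lysates are bulk, fewer cells with an RNA and less of it per cell cannot be told apart.

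The value of a cluster is the authors' log2 fold of its library over that library's input, given with a −log10 p that is 0 for each cluster below input and capped at 400. The median log2 fold was 0.26 in library 1 and 1.15 in library 2, with ranges of −8.20 to 10.63 and −7.14 to 10.65. In library 1, 155229 clusters lay below input, 40.4% of it (95% exact interval 40.2 to 40.5). In library 2, 33333 did, 14.4% (14.2 to 14.5). The mean share was 27.4% ± 18.4 (SD, n = 2), so the libraries differed in it by far more than counting error.

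The libraries also differed in where clusters of few reads fell. In both the folds lay on steps, and the 10 commonest values held 56.9% and 69.2% of clusters. The commonest step matched 3 immunoprecipitation reads to 1 input read. It lay at −0.16 in library 1, where it held 48778 clusters (12.7%), and at 1.15 in library 2, where it held 49774 (21.5%). The deposited −log10 p at that step in library 2, 0.193, equals that of an exact test of 3 reads against 1, and those at the 8-to-1 step, 0.158 and 1.05, equal those of 8 against 1. A ratio of 1 to 1 lay at −1.74 and −0.44. The same small numbers of reads thus counted as below input in library 1 and above it in library 2, and this 1 step made up 31.4% of the clusters below input in library 1. Without it 31.7% of library 1 and 18.3% of library 2 lay below input. At a log2 fold of −2 or lower, which 7576 clusters of library 1 (1.97%) and 1991 of library 2 (0.859%) had, a cluster lies under the 1-to-1 step of either library, and such clusters are called well below input here.

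**Figure D1:**
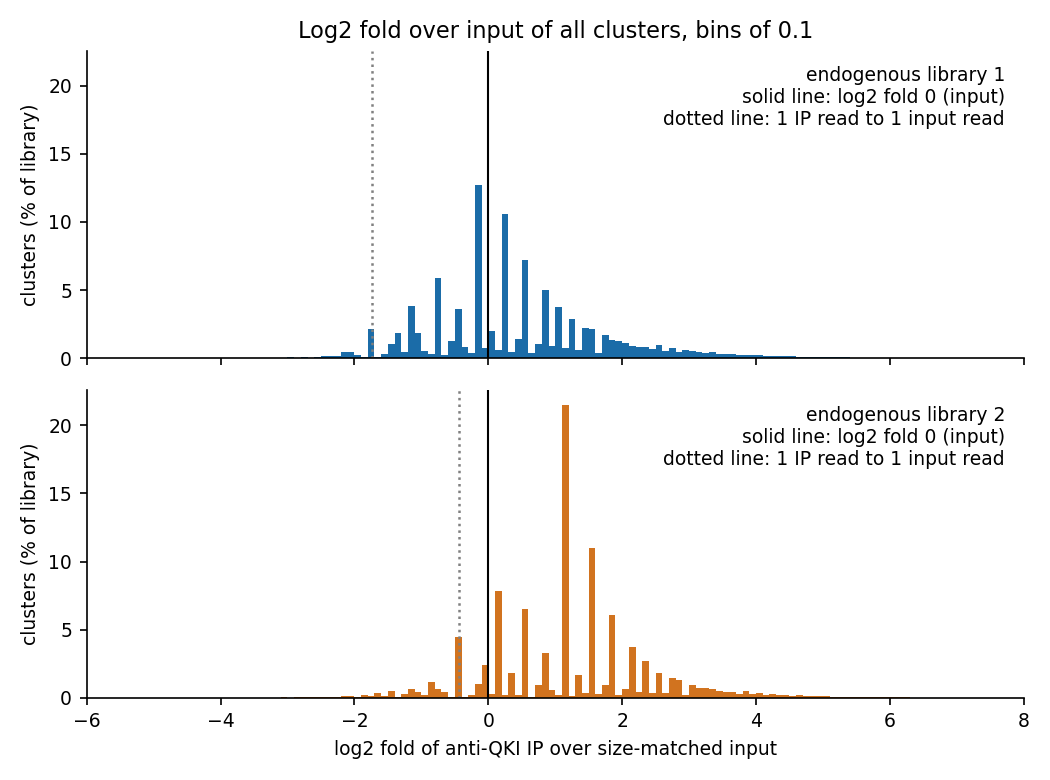
Share of each library's clusters (vertical axis, percent) by log2 fold over input in bins of 0.1, from −6 to 8; the solid line marks input level and the dotted line a ratio of 1 read to 1 read. The tallest bar, 3 reads to 1, stands just left of 0 in library 1 and at 1.15 in library 2.

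Clusters were called enriched where the log2 fold and the −log10 p both reached 3. They numbered 16231 in library 1 (4.22%) and 12504 in library 2 (5.39%), a mean of 14368 ± 2635 (SD, n = 2). Clusters of the 2 libraries were paired where each was the other's longest overlap on the same strand, which gave 107237 pairs. The pairs held 27.9% and 46.3% of all clusters but 84.8% and 95.2% of the enriched ones. Across pairs, which share genes and are not independent, Pearson's r of the log2 folds was 0.76 and Spearman's rho 0.69. In 86.6% of pairs both libraries lay on the same side of input: 85302 above and 7551 below.

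Agreement depended on depth below input, and could be seen only for paired clusters. Of the clusters at −2 or lower, 21.0% in library 1 and 67.5% in library 2 were paired. Of 1593 pairs at −2 or lower in library 1, 92.3% were also below input in library 2. Of 1343 such pairs in library 2, 99.6% were below in library 1. Of 11841 pairs between −1 and 0 in library 1, 26.5% were below input in library 2. Among paired clusters, the firm set of low ones is therefore the 890 pairs (0.83% of pairs) well below input in both libraries.

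Pairs were tested against 0 with limma across all 107237, with Benjamini-Hochberg adjustment. At an adjusted p of at most 0.05, 66136 pairs lay above input (61.7%) and 3154 below it (2.94%). limma moderated every pair to one standard error of 0.55, so the test came to asking whether the mean passed about 1.18 in size, and pairs of 1 gene count separately. Once each library was centred on its median pair (1.43 and 1.56), 13756 pairs lay above and 9259 below, which moved the share of calls above from 95.4% to 59.8%.

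**Figure D2:**
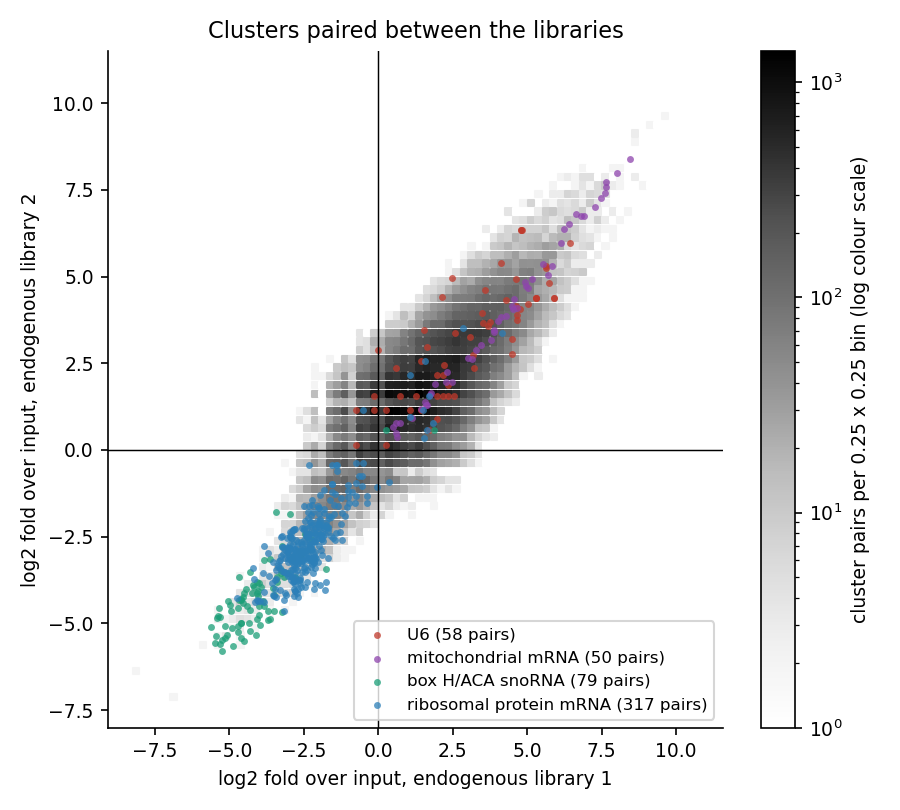
Log2 fold over input of 107237 cluster pairs in library 1 (horizontal axis) and library 2 (vertical axis), grey for the number of pairs per bin on a log colour scale, with pairs of 4 RNA classes as coloured points. U6 and mitochondrial mRNA pairs lie mostly in the upper right, H/ACA snoRNA and ribosomal protein mRNA pairs in the lower left.

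Small nuclear RNAs split by kind. U6, the catalytic snRNA of the spliceosome, stood above input at its many gene copies. Every other spliceosomal snRNA with clusters in both libraries had class medians below input in both, save U2, though members of U1 and U4atac differed in direction. U6 clusters had a median log2 fold of 2.13 in library 1 (111 clusters) and 2.77 in library 2 (75 clusters), and 36 and 32 of them were enriched. Of 58 U6 pairs, 49 were above input by limma (84.5%, against 61.7% of all pairs) and 0 below (against 2.94%). Of 93 U6 genes and copies with a cluster, 43 had one in both libraries: 38 had medians above input in both, 5 were split, and 0 were below in both. Of all 5466 genes with at least 10 clusters in each library, 4102 had medians above input in both and 255 below in both. With 1 value per named U6 gene the class median was 1.06 and 1.94, lower than over clusters.

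The highest U6 pair lay at RNU6-671P (hg19 chr12:45948367-45948425, minus strand), at 6.45 and 5.96 with a −log10 p of 62.0 and 36.9. RNU6-8, one of the annotated U6 genes, had medians of 4.87 and 5.36, and RNU6-1 had 4.49 and 2.77. Among copies, RNU6-4P with 5 clusters in each library had medians of 5.31 and 4.39, RNU6-5P 4.65 and 3.98, and RNU6-37P 4.80 and 6.33. These are 2.77 or higher in both libraries. RNU6-39P, at 2.28 and 4.42, differed more between the libraries, and RNU6-1058P, at −0.74 and 0.15, was the lowest. U6 copies are nearly identical in sequence, and how reads matching several were placed is not stated, so the class is firmer than any single copy. RNU6ATAC, the U6 counterpart of the minor spliceosome, had 1 cluster in each library, at −2.36 and −3.47.

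The partner of U6 in the tri-snRNP that pairs with both exons, U5, was at the opposite end. U5 clusters had medians of −4.59 and −4.84, and 7 of 7 pairs were below input by limma, against 2.94% of all pairs. RNU5A-1 (chr15:65588487-65588505, plus strand) held a pair at −6.91 and −7.14, and RNU5F-1 1 at −6.90 and −6.44. RNU5D-1 was at −3.37 and −3.86 and RNU5E-1 at −2.66 and −2.96, so U5 variants differed among themselves by more than the libraries did. U4, which is base-paired to U6 in the tri-snRNP, had medians of −3.31 and −3.75.

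Of the minor spliceosome, U12 had medians of −4.30 and −4.67 and U11 −2.44 and −2.69. RNU4ATAC was at −4.26 and −4.44, but the pseudogene RNU4ATAC16P had a pair at 2.06 and 3.15. U1, which first recognises the 5′ splice site, had medians of −1.16 and −1.85 over 15 and 5 clusters. Its members differed. Of 5 pairs 3 were below input by limma (against 2.94% of all pairs), and 1, at the pseudogene RNU1-85P, was above at 1.78 and 1.73. Of 4 U1 genes with clusters in both libraries, 2 had medians below input in both, 1 above in both and 1 was split. U2, with 2 clusters in each library, was at −1.17 and 0.64 and so had no common direction.

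**Figure D3:**
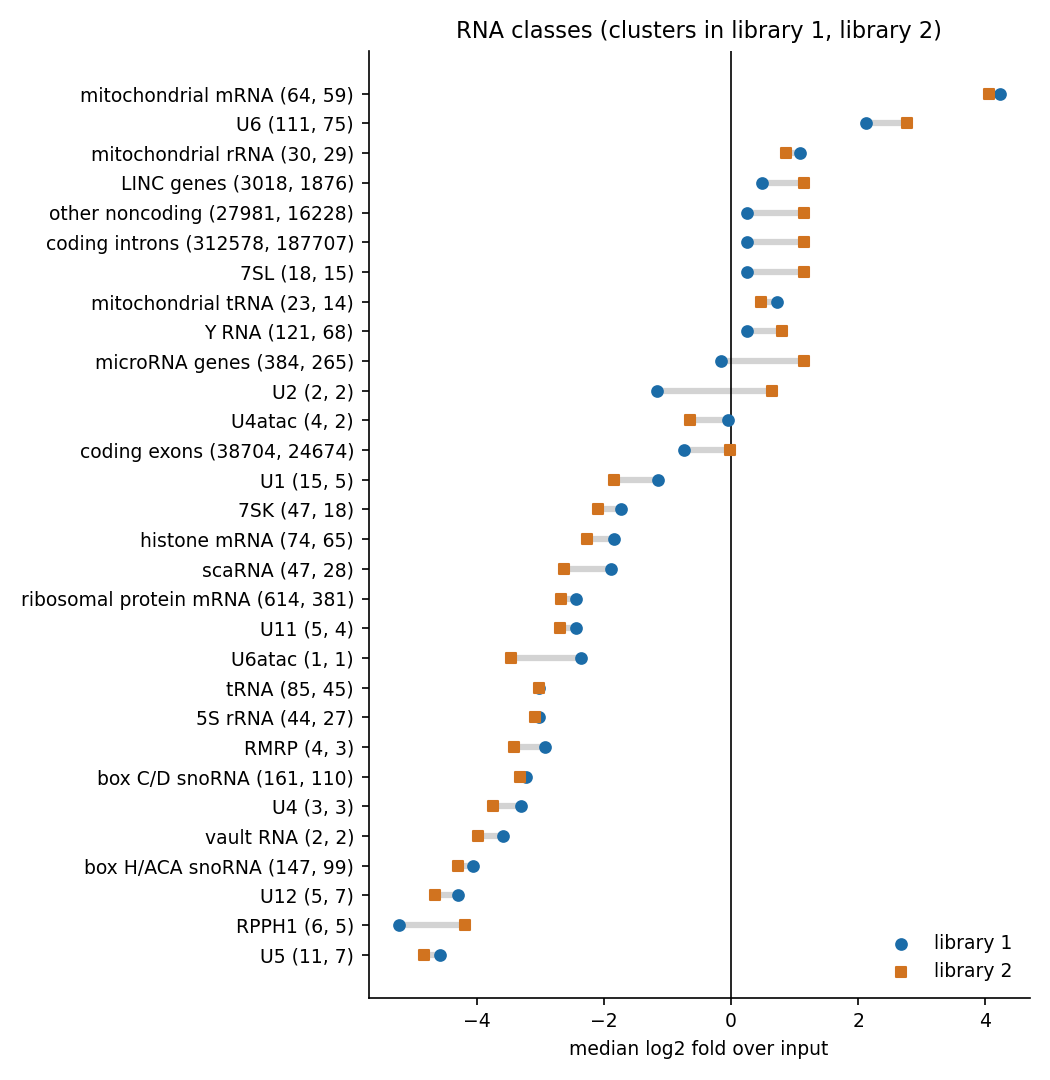
Median log2 fold over input (horizontal axis) of each RNA class in library 1 (circles) and library 2 (squares), with the number of clusters of each library in brackets. Mitochondrial mRNA and U6 lie highest and U5, RPPH1 and U12 lowest.

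RNAs that guide modification or process other RNAs were well below input. Box C/D snoRNAs, which guide ribose methylation, had medians of −3.23 and −3.32. Of their pairs 94 of 96 were below input by limma (97.9%, against 2.94% of all pairs). Box H/ACA snoRNAs, which guide pseudouridylation, had medians of −4.06 and −4.30, with 77 of 79 pairs below (97.5%). Of the box C/D genes with clusters in both libraries 87 of 88 had medians below input in both, and of the box H/ACA genes 61 of 63. SNORA65, SNORA70 and SNORA45 were the lowest by pair, at −5.26 and −5.78, −5.47 and −5.56, and −5.32 and −5.60. SNORD17 had medians of −3.98 and −3.32 over 5 and 4 clusters, and SNORA6 −4.08 and −4.49 over 7 and 3.

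The Cajal body RNAs, which guide modification of snRNAs, had medians of −1.89 and −2.64. Of their pairs 19 of 24 were below input by limma (79.2%, against 2.94% of all pairs). SCARNA11 was the lowest of them at −5.38 and −6.17, and SCARNA15 the exception at 0.66 and 1.89. RPPH1, the RNA of RNase P, had medians of −5.24 and −4.19, and RMRP, that of RNase MRP, −2.94 and −3.42. Vault RNAs, over 2 genes, had medians of −3.60 and −3.99. 7SK, which holds the elongation factor P-TEFb inactive, had medians of −1.74 and −2.10 over RN7SK and its copies, 38 and 13 named genes. Its 13 of 13 pairs were below (against 2.94% of all pairs), most of them at pseudogenes. RN7SK itself held a pair at −3.03 and −3.40 and another at −2.10 and −2.45. How reads matching several copies were placed is not stated.

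Transfer RNAs and 5S ribosomal RNA were also low. Nuclear tRNA clusters had medians of −3.03 and −3.02, with 28 of 37 pairs below input by limma (75.7%, against 2.94% of all pairs). Of 29 tRNA genes with clusters in both libraries 28 had medians below in both, from tRNA-Tyr-GTA-5-1 at −5.80 and −5.64 to tRNA-Arg-TCG-1-1 at −0.34 and −0.55. 5S rRNA, pseudogene copies such as RNA5SP150 included, had medians of −3.02 and −3.10. Of its pairs 17 of 19 were below (89.5%), with RNA5S9 lowest by pair at −5.09 and −4.97. Clusters named for Y RNAs were mixed, with medians of 0.26 and 0.81. Of their 53 pairs 15 were above input (28.3%, against 61.7% of all pairs) and 16 below (30.2%, against 2.94%). 7SL, the signal recognition particle RNA, had medians of 0.26 and 1.15, pseudogene copies such as RN7SL398P included. Over paired clusters, relative to the median pair of each library, Y RNA was at −0.86 and −1.0 and 7SL at −1.22 and −0.92. Both thus turned negative. Over all clusters, relative to the library median, Y RNA was at 0 and −0.34 and 7SL at 0 and 0. The 2 Y RNA members highest by pair, RNY4P2 at 2.68 and 3.92 and an unnumbered Y_RNA locus on chromosome 21 at 3.21 and 3.47, were above input in both libraries.

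Transcripts of the mitochondrial genome lay on the other side of input. The mRNA clusters had medians of 4.23 and 4.06 over 64 and 59 clusters, none below input, and all 13 mitochondrial mRNAs had medians above 0 in both libraries. Of 50 pairs 44 were above by limma (88.0%, against 61.7% of all pairs). MT-CO2, a cytochrome oxidase subunit, had medians of 7.63 and 7.498. MT-ND5, a complex I subunit, had 7.27 and 6.99, and MT-ATP6, an ATP synthase subunit, 6.77 and 6.77. MT-CO1 was lower at 2.08 and 1.37, and MT-ND6, the gene encoded on the opposite strand from the others, was the lowest at 0.60 and 0.67. The range among these mRNAs was thus far larger than the difference between libraries.

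Mitochondrial rRNA and tRNA were nearer to input. MT-RNR1, the small ribosomal RNA, had medians of 2.97 and 3.004, and MT-RNR2, the large one, 0.94 and 0.75. Of 24 rRNA pairs 6 were above input by limma (25%, against 61.7% of all pairs). Of 12 tRNA pairs 3 were above (25%) and 2 below (16.7%, against 2.94% of all pairs), among them MT-TC with a pair at −0.93 and −1.80. Over paired clusters centred on the median pair, the mitochondrial rRNA class turned negative (−0.37 and −0.67), as did the tRNA class (−0.47 and −1.09). Mitochondrial mRNA (2.76 and 2.28) and U6 (1.69 and 1.75) stayed above 0. Over all clusters centred on the library median, rRNA was at 0.82 and −0.29 and tRNA at 0.47 and −0.68. There mitochondrial mRNA (3.97 and 2.91) and U6 (1.87 and 1.62) also stayed above 0.

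Of the mRNA classes, those for cytosolic ribosomal proteins were the clearest below input. Their exon clusters had medians of −2.45 and −2.68, and 287 of 317 pairs were below by limma (90.5%, against 2.94% of all pairs). Of 74 such mRNAs with exon clusters in both libraries, 71 had medians below input in both. RPL4, with 17 and 12 exon clusters, had medians of −2.86 and −3.05, RPS6 −2.74 and −3.01, and RPL19 −2.71 and −3.74. Replication-dependent histone mRNAs, which end in a stem-loop in place of a poly(A) tail and have no introns, had medians of −1.85 and −2.27. Of their pairs 42 of 46 were below (91.3%). HIST1H2AG was at −2.65 and −3.11.

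A list of 28 translation elongation factor and abundant housekeeping genes behaved alike in its exons. Over its 208 pairs, 38 were above input (18.3%, against 61.7% of all pairs) and 130 below (62.5%, against 2.94%). Exon medians were below input in both libraries for 25 of 28 members, against 43.1% of the 7173 genes with exon clusters in both, with a median over members of −1.84 and −2.02, whereas over the 13 members with intron clusters in both libraries the intron median was 1.06 and 1.15. EEF1A1, the translation elongation factor, had medians of −2.71 and −3.26, and ACTB, cytoplasmic actin, exon medians of −2.20 and −2.77. PKM, pyruvate kinase, showed both sides: exons at −1.84 and −2.59, introns at 3.57 and 3.22, and 9 reproducible peaks.

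The 890 pairs well below input in both libraries can be placed in the same way. Coding sequence held 381 (42.8%), exons of noncoding transcripts 270 (30.3%), 5′ untranslated regions 86, 3′ untranslated regions 75 and tRNA genes 20. By RNA, 329 lay in exons of coding genes outside the ribosomal protein and histone mRNAs, 216 in ribosomal protein mRNAs, 88 in box C/D snoRNAs and 74 in box H/ACA snoRNAs. Introns of coding genes held 22. One of those was the lowest pair of all by its mean, at MRPS17, a gene for a mitochondrial ribosomal protein (chr7:55955580-55955606, plus strand), at −8.20 and −6.31. The 8 clusters of MRPS17 in library 1 had a median of −0.16 and the 3 in library 2 one of −6.34.

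By region label of the annotation, introns and exons of coding genes differed. Coding sequence had medians of −1.16 and −0.44, with 83.9% and 65.8% of clusters below input, and 5′ untranslated regions −0.85 and −0.11. The 3′ untranslated regions had −0.16 and 0.30, opposite sides of input. Distal introns, the largest label with 268265 and 158624 clusters, had 0.26 and 1.15, and proximal introns 0.58 and 1.15. The intron labels share their library 2 median with the 3-to-1 step, so the medians there are coarse.

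Shares of enriched clusters separate the intron labels better. Clusters labelled 3′ splice site were enriched in 7.57% and 7.54%, proximal introns in 6.22% and 7.36%, 5′ splice sites in 5.67% and 5.82%, distal introns in 4.21% and 5.52%, and coding sequence in 0.9004% and 0.9165%. The 3′ splice site label had the largest share among the coding labels in library 1. In library 2 it was close to proximal introns, with 200 of 2652 clusters against 1720 of 23364, a difference that was not tested. Exons of noncoding transcripts had 4.597% and 6.159%, a label that spans snoRNAs and their hosts well below input and long noncoding RNAs such as MIAT far above it.

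**Figure D4:**
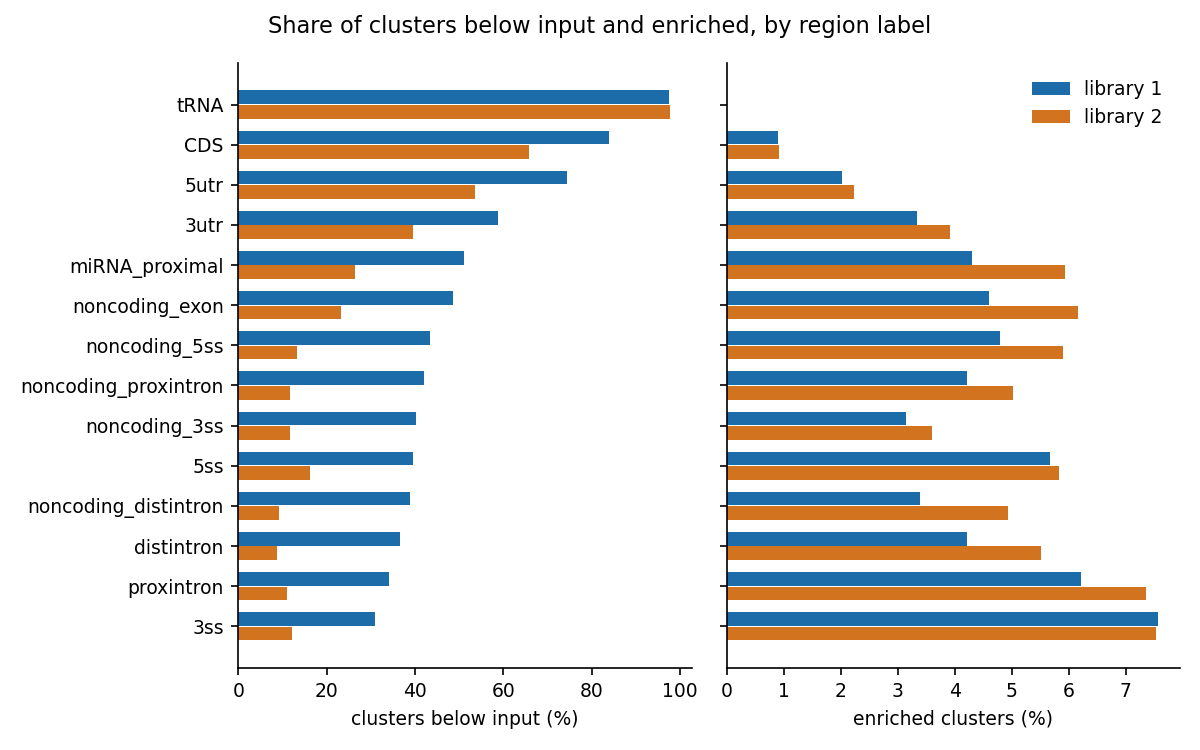
Share of clusters below input (left, percent) and enriched (right, percent) for each region label with at least 29 pairs, in library 1 and library 2. Transfer RNA and coding sequence have the highest shares below input and the lowest shares enriched.

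Over all clusters of coding genes the median was 0.26 and 1.15 in introns and −0.74 and −0.02 in exons, a difference of 1.00 and 1.17 (mean 1.08 ± 0.12, SD, n = 2). The same contrast was made within genes, for 969 genes with at least 5 clusters of each kind in each library. The intron median exceeded the exon median in both libraries in 747 genes, and the reverse held in 60. limma, run across the 969 differences as a test added after the data had been seen, called 495 genes with introns above exons (51.1%) and 20 with exons above introns (2.06%).

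The widest excess of introns was in HSPD1, a mitochondrial chaperonin gene, with introns at 2.68 and 2.89 and exons at −1.70 and −1.21. Its intron-minus-exon difference was 4.24 ± 0.36 (SE, n = 2; limma adjusted p = 0.0027). SDHA, a succinate dehydrogenase subunit, followed with introns at 3.09 and 2.02 and exons at −2.03 and −1.16. YBX1, a cold-shock RNA-binding protein, had introns at 1.43 and 1.56 and exons at −2.14 and −2.66. EIF3L and EIF4B, translation initiation factors, NACA, which guards nascent chains, NPM1, a nucleolar chaperone, RPL37A, PARP1, the DNA-damage polymerase, and ACAT1 made up the other leading genes, with mean differences of 3.37 to 3.75. In all 10 the exon medians were below input in both libraries, and the intron medians were above it in both except in RPL37A, at −0.16 and 1.15.

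Exons stood above introns most in TBL1XR1, a transcriptional corepressor subunit. Its exon clusters, all in the 3′ untranslated region, were at 4.90 and 6.65 and its introns at 1.06 and 1.37, a difference of −4.56 ± 0.44 (SE, n = 2; limma adjusted p = 0.0027). FAM208A, a subunit of the HUSH silencing complex, had 29 and 18 clusters in its 3′ untranslated region with medians of 4.20 and 4.56, against introns at 2.04 and 1.47. BRAF, a RAF kinase, had exon medians of 3.82 and 3.96, again all in that region, against introns at 1.40 and 1.89. WDFY3, a selective autophagy scaffold, had exon medians of 3.47 and 3.25, and KSR1, a scaffold of the same kinase cascade as BRAF, 2.06 and 2.81.

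Not all such exon clusters lay in the 3′ untranslated region. SNX9, an endocytic sorting nexin, had coding clusters at 3.90 and 4.12, 7 and 5 of its 8 and 6 exon clusters. SLAIN1, a microtubule plus-end protein, had no cluster in its 3′ untranslated region and exon medians of 4.79 and 4.47 over 6 and 5 clusters. Of these, 3 in each library were coding, with lower medians of 4.26 and 2.50. FAM13B, CYFIP1, of the actin-regulating WAVE complex, and SLC6A6, the taurine transporter, completed the leading 10, with mean differences of −2.45, −1.89 and −1.73. The coding clusters of CYFIP1, at −0.16 and 1.06, were lower than its exon medians of 2.58 and 2.61. The introns of these 10 genes were above input in both libraries, except those of KSR1 at −0.16 and 1.15.

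**Figure D5:**
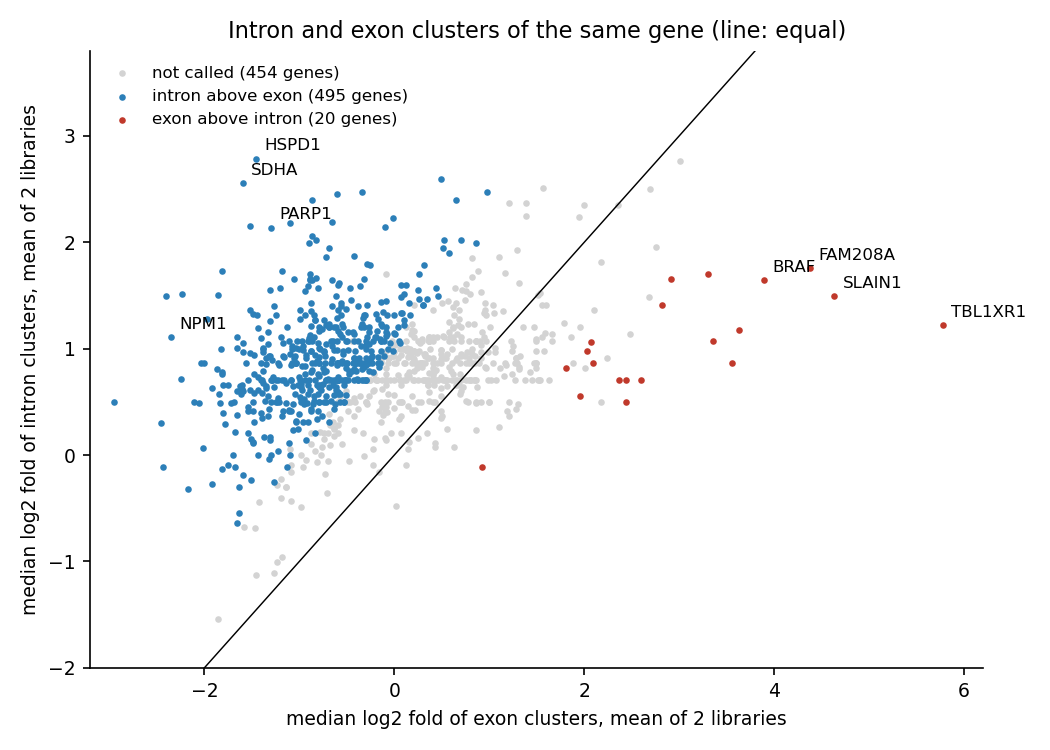
Median log2 fold of exon clusters (horizontal axis) and intron clusters (vertical axis) of 969 genes, each a mean of the 2 libraries, coloured by the limma call; the line marks equal values. Most points lie above the line, with 495 genes called for introns and 20 for exons.

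Gene medians were compared with input for 5466 genes with at least 10 singly named clusters in each library. limma called 585 genes above input (10.7%) and 41 below (0.75%). The highest gene was MT-ND5. MIAT, a nuclear long noncoding RNA, followed at 6.63 and 6.94, with all of its 14 and 13 clusters enriched. HNRNPK, which encodes another KH-domain protein, had 5.11 and 7.23. FHL1, a LIM-domain gene, had 5.16 and 6.34, CANT1, a nucleotidase gene, 5.22 and 5.78, and BICD2, a dynein adaptor, 5.97 and 5.04. The mean over libraries was 6.79 ± 0.45 for MIAT and 5.50 ± 0.45 for CANT1 (SE, n = 2). This SE is the one to which limma moderated every gene, so it is not the spread of MIAT or CANT1 alone.

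In CANT1 and in other high genes the level came from introns. CANT1 had 34 of 39 and 25 of 27 clusters in introns, at 5.09 and 5.71. PFDN1, a prefoldin subunit, had a median of 5.98 and 5.13, with introns at 6.92 and 6.87 and exons at 0.34 and −0.44. SLC19A1, the reduced folate carrier, had introns at 6.86 and 6.50 and exons at −0.32 and −0.44. In MICAL3, an actin-oxidising monooxygenase gene with a median of 5.51 and 5.16, 79 of 107 clusters were enriched in library 1 and 53 of 77 in library 2. The lncRNA annotated as lnc-USP6-2, at 5.84 and 5.70, completed the 10 highest.

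The 10 lowest genes were hosts of snoRNAs and genes of abundant mRNAs, most of them for the translation apparatus. SNHG1 and GAS5, both snoRNA hosts, had medians of −3.38 and −3.63, and −3.45 and −3.36. RPLP0, of the ribosomal stalk, was at −3.39 and −3.15, GNB2L1, the ribosome-bound scaffold RACK1, at −2.93 and −3.33, and GAPDH, the glycolytic dehydrogenase, at −2.86 and −3.48. TPT1, RPL4, RPS6, RPS3 and EEF1A1 had means of −2.99 to −2.65. RPS3 was the only one of the 10 with an enriched cluster, 1 in library 1. When medians were centred on the median gene of each library, limma called 0 genes in either direction, and the adjusted p of these 20 named genes rose to between 0.22 and 0.29. Their centred means stayed large, at 4.63 to 6.43 for the 10 high and −4.21 to −3.35 for the 10 low. In that fit 949 genes had the same centred value in both libraries, and the prior degrees of freedom dropped from infinite to 0.51. The 76 genes below and 1827 above at an unadjusted p under 0.05 in the uncentred fit show how many lay near the threshold.

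Single clusters reached higher than gene medians. The highest pair was in LRRC3DN (chr21:45880717-45880810, plus strand, labelled 3′ untranslated region), at 10.63 and 10.65 with the −log10 p at its cap of 400 in both libraries. Further pairs are ranked with only the highest of each named gene kept. TTF2, a transcription termination factor gene, followed at 10.58 and 8.74 (chr1:117645384-117645393, plus strand). In the next 7 genes the highest pair lay in a distal intron. These began with RAB7A, a late endosomal GTPase, at 9.34 and 9.64, ZNF12, a zinc finger gene, at 9.27 and 9.42, and MICAL3 at 9.18 and 9.48. LYRM4, for iron-sulfur cluster assembly, NBPF1, SLC7A11, the cystine transporter, and CNOT4, a ubiquitin ligase of the CCR4-NOT complex, lay between 8.08 and 9.16. Each mean had the SE of 0.55 to which limma moderated every pair (n = 2), not a spread of its own. ZNF12 was high at 1 place only: in library 1 it held 4 clusters, of which 1 was enriched.

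The pooled reproducible list held 12409 peaks, which join into 9650 loci when peaks within 50 bases are merged. It is 1 list for the 2 libraries and has no replicate error of its own. Every peak had a value in both libraries, with a median of 4.09 and 4.10, and none was below input: the lowest values were 1.43 and 1.56. At 10205 peaks both libraries reached 3, at 1205 library 1 did not and at 999 library 2 did not. The lowest pooled log2 fold of the list was 3.001.

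Distal and proximal introns of coding genes made up 83.1% of the peaks, and splice-site labels brought introns to 86.4%, against 81.3% and 81.0% of all clusters. Proximal introns held 1738 peaks (14.0%, against 9.49% and 10.1% of clusters), 3′ splice sites 209 (1.68% against 0.924% and 1.14%) and 5′ splice sites 196 (1.58% against 1.13% and 1.33%). Coding sequence held 111 (0.895% against 4.13% and 4.52%), and 3′ untranslated regions 522 (4.21%). U6 held 31 peaks at 15 loci, 0.25% of the list against 0.029% and 0.032% of clusters. Mitochondrial mRNA held 43 peaks at 19 loci, with a median pooled log2 fold of 5.45.

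The peaks spread over 3866 named genes, of which 1961 had a single locus and 96 had at least 10. MICAL3 had the most peaks, 48, which join into 12 loci. SLIT2, a secreted guidance ligand, had 46 peaks at 28 loci, and FHIT, a dinucleoside hydrolase gene, 45 at 39. INPP5A, an inositol phosphatase gene, had 38 peaks at 14 loci, CMSS1 38 at 27 and ROBO1, the receptor of SLIT2, 34 at 23. By loci the order therefore differs, with MICAL3 the lowest of these 6. These genes differed in how much of them was high. INPP5A had a median of 2.65 and 2.56 with 2 clusters below input in each library, whereas FHIT had a median of 0.72 and 1.21, with 60 and 48 enriched among 924 and 694 clusters.

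Some transcripts lay on both sides of input at once. Of 3866 genes with a reproducible peak and 1527 with a pair below −1 in both libraries, 341 had both, 8.82% of the former and 22.3% of the latter. The 3866 are to be set against all named genes, 16181 in library 1 and 14058 in library 2. Whether the overlap differed from that background was not tested. EIF3E, an initiation factor subunit, had 5 peaks and 8 such pairs, with exons at −2.08 and −1.76 and introns at 0.37 and 0.89. HUWE1, a ubiquitin ligase, had 5 and 6, with exons at −1.74 and −1.44 and introns at 0.96 and 1.15. PARP1 also had 5 and 6. HNRNPD, an mRNA-decay factor, had 4 and 5 and differed in that its 3′ untranslated region was high, at 2.97 and 2.80, while its coding sequence was at −1.59 and −1.38.

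Genes known from earlier work as QKI targets were near the background of all pairs. Of the 26 listed, 23 had clusters in both libraries, and of their 590 pairs 388 (65.8%) were above input and 13 (2.20%) below, against 61.7% and 2.94% overall. Of 20 tested gene medians, 4 were above input by limma and 0 below, against 10.7% and 0.75% of all genes. Reproducible peaks were present in 19 of the 26 members, 111 in all, led by MAGI1, a junctional scaffold, and ERBIN with 13 each. That is a larger share than among all named genes, where 3866 had a peak and libraries 1 and 2 named 16181 and 14058. The difference in this share was not tested, and members were not matched for number of clusters. ERBIN, which the annotation lists under its older name ERBB2IP, had medians of 1.26 and 1.56, with 34 of 39 pairs above input. QKI's own transcript had 9, with exon medians of 2.00 and 1.15 and introns at 0.58 and 1.37, and ATXN2, the ataxin gene, also had 9. TPM1, a tropomyosin gene, was the highest of the list at 4.54 and 3.99. HNRNPA1, an hnRNP gene, had medians of −0.30 and −1.51 and was not called (limma adjusted p = 0.129, n = 2), with 5 of 17 pairs above input and 8 below. Its 3′ untranslated region was at 1.36 and 1.30 and its coding sequence at −1.85 and −2.04, and it held 3 reproducible peaks. CD44 and MYOCD had no cluster in either library.

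The transcripts for U6 partner and tri-snRNP proteins lay on both sides of input. Of 94 pairs in 22 genes, 38 (40.4%, against 61.7% of all pairs) were above input by limma and 17 (18.1%, against 2.94%) below. Of 7 tested gene medians 0 were called in either direction, against 10.7% and 0.75% of all genes. Exon medians lay below input in both libraries in 12 of 18 members, against 43.1% of all genes with exon clusters in both. EFTUD2, the U5 GTPase, had exons at −2.16 and −1.66 and introns at 1.30 and 1.85. PRPF8, the U5 core protein, was at −1.21 and −1.24 over all of its clusters, METTL16, the U6 methyltransferase, at 0.50 and 1.15, and SSB, which binds new U6, at −0.61 and 0.15.

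Of 631 pairs in 36 splicing regulator genes, 334 (52.9%, against 61.7% of all pairs) were above input and 49 (7.77%, against 2.94%) below. Of 30 gene medians 5 were above by limma, against 10.7% of all genes. RBFOX2 and MBNL1, regulators of tissue splicing, had 13 and 12 reproducible peaks, and MBNL1 a median of 1.06 and 1.56. PCBP2, a KH-domain gene, had 17 peaks and 2.45 and 2.37. HNRNPC was different, at −0.52 and 0.39 with 11 of 53 pairs below input, 10 above and no reproducible peak. MBNL2 had exons at 2.94 and 2.73, above its introns at 0.58 and 1.56.

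MicroRNA hairpins gave few clusters, which lay on both sides of input. Mature sequences from some of these hairpins follow, as RefSeq lists them (build GRCh38.p14), with the seed, bases 2 to 8, in capitals. They are the mature products of the genes named, not the sequences of the clusters. The first pair comes from the hairpin that was enriched, the next 5 from hairpins well below input, and the last 4 from families seen in library 2.
hsa-miR-7-5p: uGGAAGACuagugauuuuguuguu
hsa-miR-7-1-3p: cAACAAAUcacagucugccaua
hsa-miR-1248: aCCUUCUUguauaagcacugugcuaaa
hsa-miR-1291: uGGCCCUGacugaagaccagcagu
hsa-miR-3651: cAUAGCCCggucgcugguacauga
hsa-miR-6516-5p: uUUGCAGUaacaggugugagca
hsa-miR-4449: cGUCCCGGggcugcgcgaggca
hsa-miR-30a-5p: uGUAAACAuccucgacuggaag
hsa-miR-30e-5p: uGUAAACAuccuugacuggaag
hsa-miR-29a-3p: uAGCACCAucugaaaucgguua
hsa-miR-29c-3p: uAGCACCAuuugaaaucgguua

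Clusters labelled miRNA lay at 60 hairpin genes, 50 of which were matched to RefSeq. Only 13 had one in both libraries: 9 below input in both, 3 above and 1 split. Enriched in both was hsa-mir-7-1, whose hairpin lies in an intron of HNRNPK (hg19 chr9:86584725-86584770, minus strand), at 3.51 and 5.15 with a −log10 p of 12.2 and 9.92. It is also the 1 miRNA-labelled peak of the reproducible list. Well below input were hsa-mir-1248 at −3.96 and −3.90, hsa-mir-1291 at −3.22 and −3.26, and hsa-mir-4449 at −3.28 and −3.09. hsa-mir-3651 was at −4.48 and −4.95 by its median and hsa-mir-6516 at −4.43 and −4.70. Some hairpin genes of this kind, such as mir-1248, mir-1291 and mir-664b, lie within box H/ACA snoRNA genes, whose clusters were low as a class. The seeds of these 5 low hairpins were all different.

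The other hairpins had a cluster with the label miRNA in a single library. Clusters with another label could still be present in the other library. The labelled cluster of hsa-mir-664b in library 1 was paired, at −5.50 and −4.32. A pair named for hsa-mir-548l, beside its labelled cluster, was at 5.21 and 5.44. By this label 29 hairpins were in library 2 alone, of which 27 were above input. Of all library 2 clusters only 14.4% lay below input, and its commonest step of few reads lay at 1.15. These 29 hairpins ranged from −0.44 to 3.27, none enriched, with a median width of 25 bases and a median −log10 p of 0.357. They include the mir-30 family, which shares the seed GUAAACA in 4 genes here, with hsa-mir-30a at 0.15 and hsa-mir-30e at 0.56, and hsa-mir-29a and hsa-mir-29c, with the seed AGCACCA, both at 1.15. hsa-mir-30c-1 was in both libraries, at 0.26 and 1.56. In library 1 alone there were 18, of which 15 were below input, against 40.4% of all clusters of that library. The median width of these 18 was 44. The medians of the label, −1.29 in library 1 and 1.15 in library 2, therefore describe largely different hairpins.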

How the data were processed

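The build is hg19 and the tools named are SAMtools, STAR, UMI-tools and cutadapt, per the submitters' processing notes. Which peak caller was used, and in which versions these tools ran, is not stated. The deposited values per cluster are the authors' log2 fold over input and the authors' −log10 p; the inputs entered only through them. Read depth per library is unknown, since the files give no counts. Exact Clopper-Pearson intervals (95%) cover counting error only. Names and regions are the annotation's; clone names were dropped where another remained, and 96.8% and 97.1% of clusters then had 1 name.

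Pairs (overlap of at least 1 base), gene medians and intron-minus-exon differences were fitted with limma 3.58.1 (lmFit, eBayes, intercept only) in R 4.3.3, with Benjamini-Hochberg adjustment at 0.05, and the step was tested on simulated data. Named genes were the 10 highest and 10 lowest gene medians, pairs (1 per gene) and intron-exon differences past the threshold. The class and list members with most pairs, and genes with most peaks on both sides of input, were also named. Members singled out as highest, lowest or exceptional within a class were chosen after their values were seen. The members and lists were chosen with earlier results of these data known. Alternatives tried were centring, filters on weak or short clusters, pairing rules, cluster minimums, means, robust moderation and leaving out each library.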

Additional observations from a re-analysis of the deposited data

How the results depend on the processing

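Pairs called by limma numbered 13756 above and 9259 below input when libraries were centred on the median pair. With a −log10 p of at least 3 in 1 library they were 19743 above (of 19835 tested) and 0 below, because each cluster below input has a −log10 p of 0. Leaving out a library gave 3735 to 6540 pairs below −1. Gene calls above and below were 0 and 0 with centring, 2699 above with means, 100 and 16 with robust moderation, and 1115 (of 1115 tested) and 0 with a −log10 p of at least 1. Genes below numbered 134 at a minimum of 5 clusters and 5 at 20. With 1 library, 4124 to 5189 genes lay above 0 and 277 to 1342 below, with no test; introns exceeded exons in 772 to 864 genes and the reverse held in 76 to 181.

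Enriched clusters per library averaged 17840.5 with the fold threshold lowered to 2, 7378.5 with it raised to 4, and 9717.5 with the −log10 p raised to 5. The share below −1 averaged 8.74%. The intron-minus-exon difference was 1.71 over clusters found in both libraries and 1.25 over clusters of at least 20 bases. Distal and proximal introns of coding genes made up 84.7% of merged loci.

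Medians that changed sign include those of 3′ untranslated regions (−0.0187 with 1 value per gene, −0.16 to 0.30 leaving out a library), and, leaving out a library, the miRNA label (−1.29 to 1.15), the label miRNA_proximal (−0.12 to 0.89), U2 (−1.17 to 0.64) and microRNA genes (−0.16 to 1.15). Y RNA, 7SL, mitochondrial rRNA and mitochondrial tRNA turned negative when paired clusters were centred on the median pair. With all clusters centred on the library median, none of these classes was negative in both libraries. Coding exons turned positive (0.12) over clusters found in both libraries. The cause of these changes was not tested, beyond the step at 3 reads to 1. The 20 named pairs kept their calls under centring and robust moderation, and the 20 named genes lost theirs under centring, with means of 4.63 to 6.43 and −4.21 to −3.35. No paired analysis was possible because each fold already sets a library over its own input, so the replicate number is no separate term. Clusters of a few reads limit every count of weak calls.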
